A study of Mus musculus with 15 samples.

Results

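Ribosomes are made in the nucleolus, where RNA polymerase I transcribes ribosomal DNA into a long precursor that is modified, cut and folded while ribosomal proteins are added to it. Small nucleolar RNAs guide the modifications inside small nucleolar ribonucleoproteins (snoRNPs), and a large set of assembly factors carries the precursor to the small and the large ribosomal subunit. Myc is a transcription factor that, with its partner Max, is known for activating many of the genes of this pathway, and dividing tumour cells rely on it. The genes described here are Myc and 40 nucleolar genes, 41 in all, of the 40402 rows of the count table. They were found by gene symbol, and all 41 passed the filter on low counts, as did 17647 genes in total. The rule that lists them uses no expression value.

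RNA-seq was carried out on 4T1 cells, a mouse mammary carcinoma line labelled wild type, that were left untreated or were exposed to blackberry extract (BLA), blueberry extract (BLU) or gold nanoparticles made with each extract (BLA-A and BLU-A). All cells were the same line grown in culture, without other cells of a tumour, and the dose and exposure time are not in the sample labels. The labels list 3 samples in each of the 5 conditions, but within each condition these 3 columns agreed more closely than sampling noise would allow, at a chi-square per degree of freedom of 0.0951 to 0.475, so they were averaged and counted as 1 library. Each treatment could therefore be compared with the untreated cells by size only, without a replicate check, and every interval below covers counting error only.

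The 5 libraries held 25613778 to 26956442 counts each, of which the 41 genes took 0.672% in untreated cells and, in treated cells, from 0.427% (BLA-A) to 0.564% (BLU-A). The labelled mammary origin was checked on markers: the 10 epithelial genes summed to 1016 to 1922 CPM (counts per 1e6 counts of the scaled library) per library with Krt5, a basal keratin, listed at 0, while 6 leukocyte genes summed to 0.791 to 3.81 CPM and 5 endothelial genes to 3.93 to 8.83 CPM. The 6 fibroblast genes summed to 87.2 to 104 CPM, nearly all of it Pdgfra. CPM values are scaled by the trimmed mean of M values (TMM). A change is the difference of log2(CPM + 0.5) from untreated cells, which understates the change of low genes.

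Myc binds the E-box CACGTG, so the start sites of the genes were searched for these letters in RefSeq windows of 300 bases, 250 before and 50 after the annotated start. The letters read the same on both strands and no other motif was searched. Of the 41 genes, 35 had a window and 7 of these held the E-box, which is 20.0%, against 8.09% of all 27025 genes with a window and 10.4% of the 13323 of them that passed the filter. Of all 32851 windows, 7.15% held it. The 5 windows with the most copies, ties taken in order of untreated CPM, are shown in the GRCm38.p6 build, 5′ to 3′ along the gene, with the E-box in capitals. They belong to Rrn3, the factor that brings RNA polymerase I to its promoter, to Mybbp1a, a nucleolar Myb-binding protein, and to Wdr43, Utp20 and Utp4, factors of the small subunit precursor.
Rrn3, chr16:13780449-13780748, plus strand: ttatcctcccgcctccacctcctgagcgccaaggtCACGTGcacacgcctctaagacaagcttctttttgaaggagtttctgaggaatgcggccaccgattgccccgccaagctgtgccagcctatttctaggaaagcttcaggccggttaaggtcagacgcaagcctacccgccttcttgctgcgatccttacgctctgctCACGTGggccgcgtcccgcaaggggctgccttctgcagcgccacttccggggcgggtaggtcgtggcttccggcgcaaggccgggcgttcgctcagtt
Mybbp1a, chr11:72441077-72441376, plus strand: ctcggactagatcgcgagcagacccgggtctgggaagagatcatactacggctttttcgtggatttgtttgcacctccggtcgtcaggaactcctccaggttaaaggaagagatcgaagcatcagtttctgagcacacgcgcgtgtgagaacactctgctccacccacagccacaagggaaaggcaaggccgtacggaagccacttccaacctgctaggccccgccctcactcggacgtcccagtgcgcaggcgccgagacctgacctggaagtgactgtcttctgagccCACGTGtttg
Wdr43, chr17:71615965-71616264, plus strand: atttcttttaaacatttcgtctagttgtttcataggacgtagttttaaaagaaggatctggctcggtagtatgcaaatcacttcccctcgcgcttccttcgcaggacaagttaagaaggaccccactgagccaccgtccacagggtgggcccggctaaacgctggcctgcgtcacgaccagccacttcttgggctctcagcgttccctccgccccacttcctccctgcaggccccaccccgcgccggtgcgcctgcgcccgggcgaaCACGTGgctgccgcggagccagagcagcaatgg
Utp20, chr10:88826765-88827064, minus strand: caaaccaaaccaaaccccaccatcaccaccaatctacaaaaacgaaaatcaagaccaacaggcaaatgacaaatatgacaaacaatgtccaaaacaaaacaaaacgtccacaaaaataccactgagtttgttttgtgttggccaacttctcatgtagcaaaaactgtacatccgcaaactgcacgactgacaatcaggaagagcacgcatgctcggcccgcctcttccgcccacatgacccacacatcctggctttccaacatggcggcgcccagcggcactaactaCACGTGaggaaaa
Utp4, chr8:106893390-106893689, plus strand: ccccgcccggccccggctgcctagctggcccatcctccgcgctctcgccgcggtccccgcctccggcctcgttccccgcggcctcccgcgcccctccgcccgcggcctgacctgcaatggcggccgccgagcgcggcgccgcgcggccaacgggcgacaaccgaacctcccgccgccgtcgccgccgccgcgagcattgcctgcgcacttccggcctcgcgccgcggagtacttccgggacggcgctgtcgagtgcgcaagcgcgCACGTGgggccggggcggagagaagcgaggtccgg
The letters began at -215 and -48 from the start site in Rrn3, at +41 in Mybbp1a, +18 in Wdr43, +38 in Utp20 and +16 in Utp4. The remaining 2 genes were Pes1 and Nop2, with 1 copy each. The 7 genes with the E-box had a median change of -0.49 in BLA and -0.26 in BLA-A, and the 28 genes whose window lacked it -0.57 and -0.29. The matches are a description of these windows and say nothing of whether Myc was bound.

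Most of the 41 genes were lower in BLA, BLU and BLU-A than in untreated cells, and they split into higher and lower genes in BLA-A. The median change was -0.53 for BLA, -0.26 for BLU and -0.21 for BLU-A, while BLA-A gave 0.02, or -0.17 with libraries scaled by total counts. The medians of all genes were between -0.01 and 0.00. BLA put 37 genes (90.2%) below 0, BLU 36 (87.8%), BLU-A 38 (92.7%) and BLA-A 20 (48.8%). Of all genes, 50.9%, 50.5%, 49.7% and 50.8% were below 0 in that order. The counting interval lay wholly below 0 for 35 genes under BLA, 31 under BLU, 30 under BLU-A and 20 under BLA-A, and wholly above 0 for 1, 2, 1 and 18. Over all genes the shares with an interval wholly below 0 were 37.6%, 33.2%, 28.8% and 36.9% in that order, and those wholly above 0 were 35.5%, 33.5%, 29.1% and 36.9%. Of the 41 genes, 85.4%, 75.6%, 73.2% and 48.8% had an interval wholly below, as did 3917, 3604, 2918 and 3372 of the 9544 genes described next. Among the 9544 genes with a mean level of at least 10.8 CPM, that of Gar1, the lowest of the 41, the medians were -0.02 for BLA, -0.01 for BLU, 0.00 for BLU-A and 0.10 for BLA-A.

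**Figure D1:**
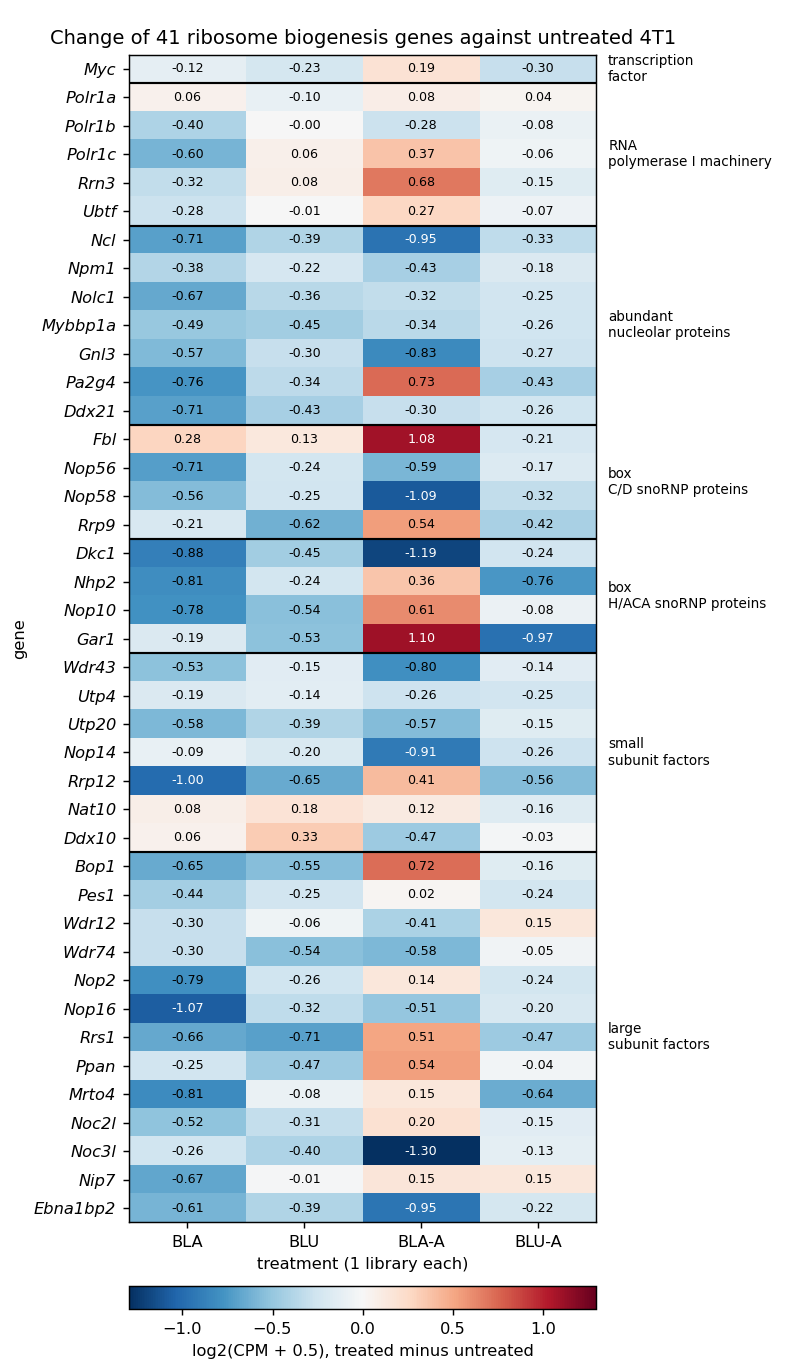
Change of each of the 41 genes (rows, grouped by role) in the 4 treatments (columns), as the difference of log2(CPM + 0.5) from untreated 4T1 cells, with 1 library per condition. Blue cells are below untreated and red cells above it, and the BLA-A column holds both the lowest value, Noc3l at -1.30, and the highest, Gar1 at 1.10.

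In BLA, 22 of the 41 genes (53.7%) were lower by over 0.5 on the log2 scale, against 21.5% of all genes, and 0 were higher by over 0.5, against 21.2%. In BLU, 7 genes (17.1%) were lower by that much, against 14.6%, and 0 were higher, against 18.3%. In BLU-A, 4 genes (9.76%) were lower, against 12.0%, and 0 higher, against 12.9%. In BLA-A, 12 genes (29.3%) were lower, against 26.1%, and 9 (22.0%) higher, against 23.4%, so that both shares there were close to those of all genes, and scaling by total counts left 4 higher. Changes over 1 in size numbered 5 (12.2%) in BLA-A, where 20.9% of all genes and 12.5% of the genes at or above the lowest of the 41 passed that size. BLA had 1 (16.5% and 5.16%), BLU 0 (10.3% and 2.34%) and BLU-A 0 (7.85% and 0.817%).

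Because the background of all genes includes many at low counts with wide counting error, the same shares were taken over the 9544 genes at or above 10.8 CPM. Lower by over 0.5 were 13.6% of these under BLA, 6.22% under BLU, 1.34% under BLU-A and 16.3% under BLA-A. Higher by over 0.5 were 15.4% under BLA, 11.9% under BLU, 5.97% under BLU-A and 25.3% under BLA-A. The 4 treatments share the untreated library.

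**Figure D2:**
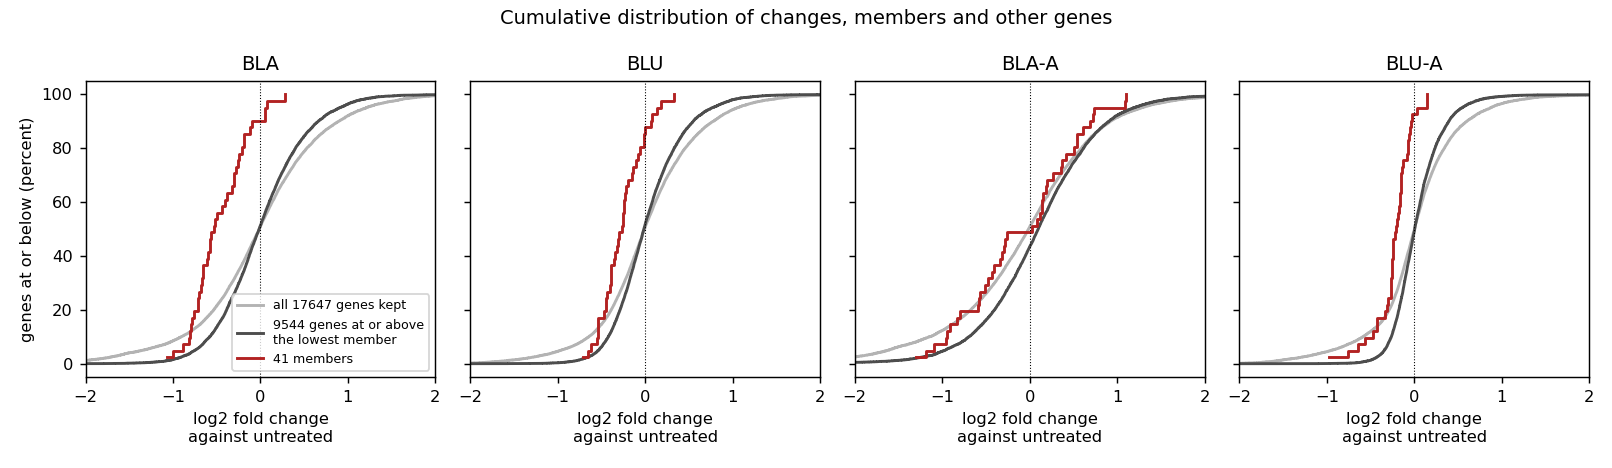
Cumulative percent of genes (y axis) at or below each log2 fold change against untreated cells (x axis, shown from -2 to 2) for the 41 genes, all 17647 genes and the 9544 genes at or above the lowest of the 41, in 1 panel per treatment. The line of the 41 genes lies left of the others around 0 in BLA, BLU and BLU-A, with medians of -0.53, -0.26 and -0.21, and crosses them in BLA-A.

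The order of the libraries was also counted for each gene. The untreated library held the highest of the 5 values for 18 of the 41 genes (43.9%), against 19.3% of all genes, and the lowest for 0, against 19.7%. BLA held the lowest value for 20 genes, against 23.5%, and the highest for 0, against 23.4%. BLA-A held the highest for 20, against 29.3%, and the lowest for 13, against 32.7%. BLU was highest for 2, against 17.1%, and lowest for 4, against 14.4%, and BLU-A was highest for 1, against 10.9%, and lowest for 4, against 9.75%. No gene was below untreated by over 0.5 in all 4 treatments.

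No condition had more than 1 library, so the spread between the 4 treatments served as error. The untreated library was assumed to vary like them. The 4 treated libraries were set together against the untreated library in edgeR's quasi-likelihood test. It called 4 genes of the whole table at a Benjamini-Hochberg adjusted p under 0.05, or 0.0227% of those tested, and 0 of the 41. At an unadjusted p under 0.05 it held 481 genes and 0 of the 41, and DESeq2 called 19 genes and 0 of the 41. The fitted change was below 0 for 36 of the 41. The smallest p among them was that of Ncl, with a fitted log2 change of -0.57 (SE 0.27) and an edgeR adjusted p of 0.999, and Ncl was lower in 4 of 4 treated libraries. Without the BLA-A library the test called 34 genes (0.193%) and again 0 of the 41. There the fitted log2 change of Ncl was -0.47 (SE 0.15). BLA-A is the library in which the 41 genes split, so leaving it out favours agreement among the rest. Results for the 41 without each of the other treatments are not given here.

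Myc (chr15:61857227-61862223, plus strand, GRCm39) was measured between 191 CPM, in BLU-A, and 269 CPM, in BLA-A, with untreated cells at 235, BLA at 216 and BLU at 201. Its changes were small, at -0.12 in BLA (95% counting interval -0.17 to -0.07), -0.23 in BLU (-0.28 to -0.18), -0.30 in BLU-A (-0.35 to -0.25) and 0.19 in BLA-A (0.14 to 0.24). The BLA-A value rests on the scaling. With libraries scaled by total counts, the median of all genes in BLA-A shifted by -0.17 and Myc in BLA-A was at 0.00. With DESeq2 size factors the shift was 0.05 and Myc was at 0.25. Myc was not the most changed of the 41 genes in any treatment.

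The genes that bind with Myc or compete with it were read from a list of 14, of which 13 passed the filter and Mycn did not. Their median change lay between -0.04, for BLA-A, and 0.19, for BLA. Max, the obligate partner, had 44.9 CPM when untreated and 87.2 CPM in BLA-A, a change of 0.95, and between 35.7 and 42.6 CPM in the other treatments. Mxi1, which competes with Myc for Max, was at 73.3 CPM in untreated cells and 134 CPM in BLA, a change of 0.87. Mxd3, of the same family, went the other way, from 133 CPM to 75.0 in BLA and 76.4 in BLA-A.

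A list of 18 known Myc targets outside the nucleolus had a median change of -0.42 for BLA, -0.39 for BLU and -0.24 for BLU-A, against 0.22 for BLA-A. Lower by over 0.5 were 8 of the 18 (44.4%) under BLA, 5 (27.8%) under BLU, 0 under BLU-A and 3 (16.7%) under BLA-A. Over all genes these shares were 21.5%, 14.6%, 12.0% and 26.1%, and over the genes at or above 10.8 CPM 13.6%, 6.22%, 1.34% and 16.3%. In BLA-A 6 (33.3%) were higher by that much, against 23.4% of all genes and 25.3% of those at or above 10.8 CPM. Cdk4, a cyclin-dependent kinase, was at 0.97 in BLA-A, and Cad, which starts pyrimidine synthesis, was at -0.94 in BLA and 0.83 in BLA-A. Impdh2, an enzyme of guanine nucleotide synthesis, was lower in both, at -0.97 and -1.56. Hspd1 and Hspe1, which encode partner chaperonins of the mitochondria, were at -1.26 and 0.41 in BLA-A.

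The 5 genes of the RNA polymerase I machinery had a median of -0.32 for BLA, 0.00 for BLU, -0.07 for BLU-A and 0.27 for BLA-A. In BLA 1 of them (20.0%), Polr1c at -0.60, was lower by over 0.5, against 21.5% of all genes. In BLA-A 1 (20.0%), Rrn3, was higher by that much, against 23.4%, so both shares were near those of all genes. Polr1a, the largest subunit of the enzyme, was measured at 101 CPM in untreated cells, 105 with BLA, 94.2 with BLU, 107 with BLA-A and 103 with BLU-A, so that all 4 treated libraries lay within 0.10 of untreated on the log2 scale. Rrn3 was at 53.8 CPM in untreated cells, 43.0 with BLA, 56.7 with BLU, 86.8 with BLA-A and 48.4 with BLU-A. Its change in BLA-A, 0.68 (0.59 to 0.79), was the highest of the 5 genes. Ubtf, which bends ribosomal DNA for transcription, stayed between 99.1 CPM in BLA and 145 CPM in BLA-A.

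The 7 genes for abundant nucleolar proteins were all below untreated under BLA, BLU and BLU-A, against 50.9%, 50.5% and 49.7% of all genes. Under BLA-A 6 (85.7%) were below, against 50.8%, and Pa2g4 was above. Ncl encodes nucleolin, and had the most counts of the 41 genes (chr1:86272441-86287208, minus strand). It was measured at 2072 CPM in untreated cells, 1269 with BLA, 1583 with BLU, 1069 with BLA-A and 1647 with BLU-A. All 4 treated libraries were below untreated, with changes of -0.71 (-0.73 to -0.69), -0.39 (-0.41 to -0.37), -0.95 (-0.98 to -0.93) and -0.33 (-0.35 to -0.31). As a share of all counts it took 0.214% in untreated cells (Wilson 95% interval 0.212% to 0.216%) and 0.0968% in BLA-A (0.0956% to 0.0980%). Npm1, nucleophosmin, was at 805 CPM in untreated cells, 618 with BLA, 693 with BLU, 596 with BLA-A and 709 with BLU-A.

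Pa2g4, a growth-regulated protein that binds pre-ribosomes, was the exception. It was at 104 CPM in untreated cells, 60.9 with BLA, 81.9 with BLU, 173 with BLA-A and 76.9 with BLU-A. The change was -0.76 (-0.86 to -0.68) in BLA and 0.73 (0.67 to 0.81) in BLA-A. The other 5 genes of the group, Nolc1, Mybbp1a, Gnl3, Ddx21 and Npm1, ranged from -0.71 to -0.38 in BLA and from -0.83 to -0.30 in BLA-A.

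The 4 proteins of the box C/D snoRNPs, which carry out ribose methylation, parted in BLA-A. Fbl encodes fibrillarin, the methyltransferase, and was at 10.6 CPM in untreated cells, 13.0 with BLA, 11.7 with BLU, 23.1 with BLA-A and 9.09 with BLU-A. The BLA-A library was highest, with a change of 1.08 (0.91 to 1.33), on 535 counts against 283 in untreated cells. The BLU and BLU-A intervals included 0, and the unexpectedly low count of Fbl is taken up below. Nop58, a core protein of the same particle, was at 359 CPM in untreated cells, 244 with BLA, 302 with BLU, 168 with BLA-A and 289 with BLU-A. It was lowest in BLA-A, at -1.09 (-1.15 to -1.04), and Nop56, its paralogue in the particle, was at -0.59 there. Rrp9 was at 12.2 CPM in untreated cells and 7.73 CPM in BLU, a change of -0.62 (-0.91 to -0.40), and at 0.54 in BLA-A.

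The box H/ACA snoRNPs convert uridine to pseudouridine, and their 4 proteins parted in BLA-A as well. Dkc1 encodes dyskerin, the pseudouridine synthase (chrX:74139460-74155456, plus strand). It was at 148 CPM in untreated cells, 80.2 with BLA, 108 with BLU, 64.6 with BLA-A and 125 with BLU-A. All 4 treated libraries were lower, with changes of -0.88 (-0.96 to -0.81) in BLA and -1.19 (-1.28 to -1.11) in BLA-A. Gar1 was at 10.3 CPM in untreated cells, 8.99 with BLA, 6.97 with BLU, 22.7 with BLA-A and 5.02 with BLU-A. It held the highest change of all 41 genes in BLA-A, 1.10 (0.92 to 1.35), and the lowest in BLU-A, -0.97 (-1.35 to -0.74), on 525 and 133 counts against 275 in untreated cells. Nop10 was at -0.78 in BLA and 0.61 in BLA-A, and Nhp2 at -0.81 and 0.36.

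The genes for the small subunit precursor differed among themselves. Lower by over 0.5 were 3 of the 7 (42.9%) under BLA, 1 (14.3%) under BLU, 1 (14.3%) under BLU-A and 3 (42.9%) under BLA-A. Over all genes these shares were 21.5%, 14.6%, 12.0% and 26.1% in that order, so those of BLU and BLU-A were near the background. Higher by that much were 0 of the 7, against 21.2%, 18.3%, 12.9% and 23.4%. Rrp12, an export factor of both subunits, was at 24.7 CPM in untreated cells, 12.1 with BLA, 15.5 with BLU, 33.1 with BLA-A and 16.6 with BLU-A. Its change in BLA was -1.0 (-1.22 to -0.84), and BLA-A was the only library above untreated, at 0.41 (0.27 to 0.57). Wdr43 had the highest level of the group, 237 CPM in untreated cells, 164 with BLA, 214 with BLU, 137 with BLA-A and 215 with BLU-A. Nat10, the RNA acetyltransferase, was between 41.6 CPM in BLU-A and 52.8 CPM in BLU with untreated cells at 46.6 CPM, and its furthest change from untreated, 0.18, was the smallest such value of the 7.

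The 13 genes for the large subunit precursor were all below untreated in BLA and in BLU, against 50.9% and 50.5% of all genes. In BLA 8 of them (61.5%) were lower by over 0.5, against 21.5%, and in BLU 3 (23.1%), against 14.6%. In BLA-A 4 (30.8%) were lower and 3 (23.1%) higher by over 0.5, near the 26.1% and 23.4% of all genes. Nop16 was at 28.4 CPM in untreated cells, 13.3 with BLA, 22.6 with BLU, 19.9 with BLA-A and 24.6 with BLU-A. Its -1.07 (-1.28 to -0.92) was the lowest change of the 41 genes in BLA. Noc3l (chr19:38776566-38807686, minus strand) was at 59.0 CPM in untreated cells, 49.1 with BLA, 44.5 with BLU, 23.7 with BLA-A and 53.8 with BLU-A. Its -1.30 (-1.46 to -1.17) in BLA-A was the lowest change in any treatment, and Noc2l, its partner in early assembly, was at 0.20 there.

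Bop1, Pes1 and Wdr12 form one complex that matures the large subunit, and their values in BLA-A went in different directions. Bop1 was at 45.7 CPM in untreated cells, 28.8 with BLA, 31.0 with BLU, 75.5 with BLA-A and 40.8 with BLU-A. Pes1 was at 90.5 CPM in untreated cells, 66.5 with BLA, 75.9 with BLU, 92.0 with BLA-A and 76.6 with BLU-A. Wdr12 was at 37.0 CPM in untreated cells, 30.0 with BLA, 35.5 with BLU, 27.8 with BLA-A and 41.1 with BLU-A. In BLA-A the 3 changes were 0.72, 0.02 and -0.41, and 0.28, 0.02 and -0.22 with the GC bins described below removed. Rrs1, an assembly factor of the large subunit, held the lowest change of the 41 genes in BLU, at -0.71, and was at 0.51 in BLA-A.

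**Figure D3:**
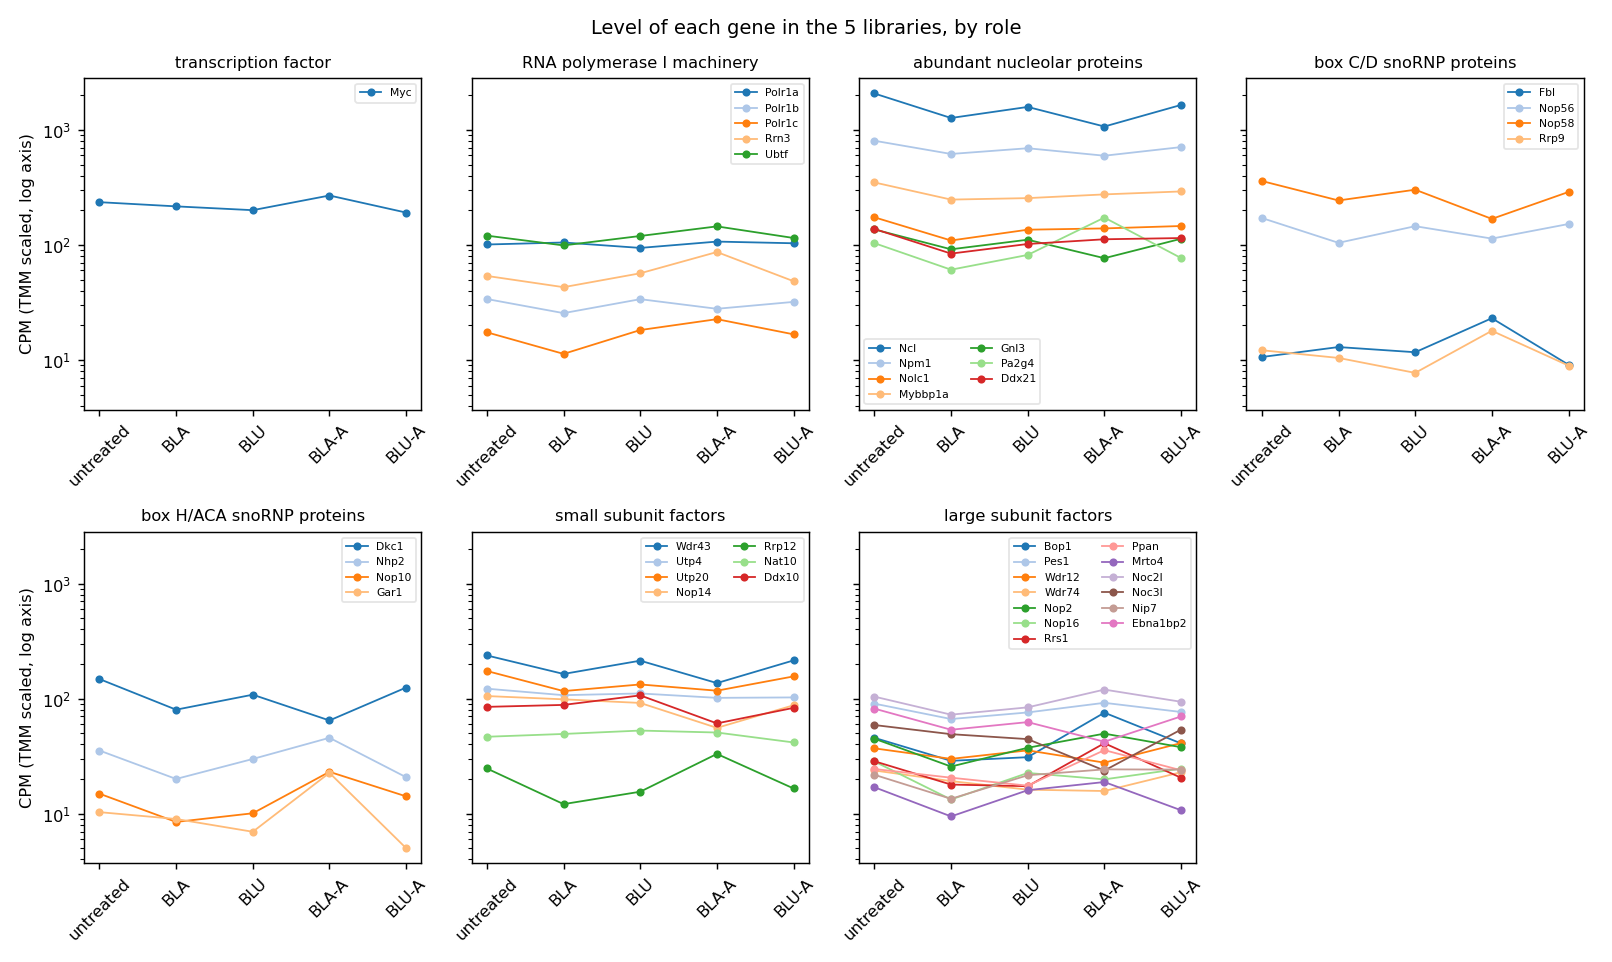
Level of each of the 41 genes in the 5 libraries (x axis) as TMM-scaled CPM on a log axis (y axis), 1 panel per role and 1 line per gene, with no error bars because each condition is 1 library. Ncl lies highest at 2072 CPM in untreated cells, and the genes that dip in BLA-A, such as Nop58 and Dkc1, share panels with genes that peak there, such as Fbl and Gar1.

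Levels between genes were compared per kilobase of annotated exon, in untreated cells. Ncl was highest at 202 CPM per kilobase, followed by Npm1 at 142, Myc at 86.2 and Mybbp1a at 58.9. The lowest were Fbl at 1.93, Wdr12 at 2.90, Rrp12 at 3.01 and Rrp9 at 3.06 CPM per kilobase. Fbl RNA is usually abundant in dividing cells, so its low count here was unexpected, and its cause was not tested. The deposited counts were taken over whole genes, introns included, so the scale is approximate. A second annotated gene overlapped 35 of the 41, on either strand, and 6 genes (Ubtf, Npm1, Nolc1, Nop10, Gar1 and Noc3l) overlapped none. Within 7 of the genes lie 20 annotated snoRNA genes on the same strand that have a row in the table, and all 20 were listed at 0 in every library.

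Genes that were higher in BLA-A had GC-richer exons than those that were lower. The 9 genes higher by over 0.5 in BLA-A had a median exonic GC share of 54.2% (45.2% to 59.8%), and the 12 lower by over 0.5 had 45.6% (39.7% to 52.3%). Over the 41 genes, the change in BLA-A correlated with exonic GC share at a Spearman rho of 0.68 and a Pearson r of 0.65. Over the 9285 annotated genes at or above 10.8 CPM rho was 0.30 (Pearson r 0.28), and these points share the same 2 libraries. In BLA, BLU and BLU-A the rho of the 41 genes was 0.05, -0.21 and -0.20. With the median change of all genes in each of 20 GC bins removed, Fbl in BLA-A was at 1.01, Gar1 at 0.87, Dkc1 at -1.0 and Noc3l at -1.17. Other genes came closer to 0, with Bop1 at 0.28 in place of 0.72, Rrs1 at 0.28 in place of 0.51, and Rrp9 and Ppan at 0.22 in place of 0.54. So 5 genes in place of 9 were then higher by over 0.5. The count of genes lower by over 0.5 stayed at 12, but Utp20 left them at -0.47 and Mybbp1a joined at -0.57. The part of base composition in the split was not tested.

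**Figure D4:**
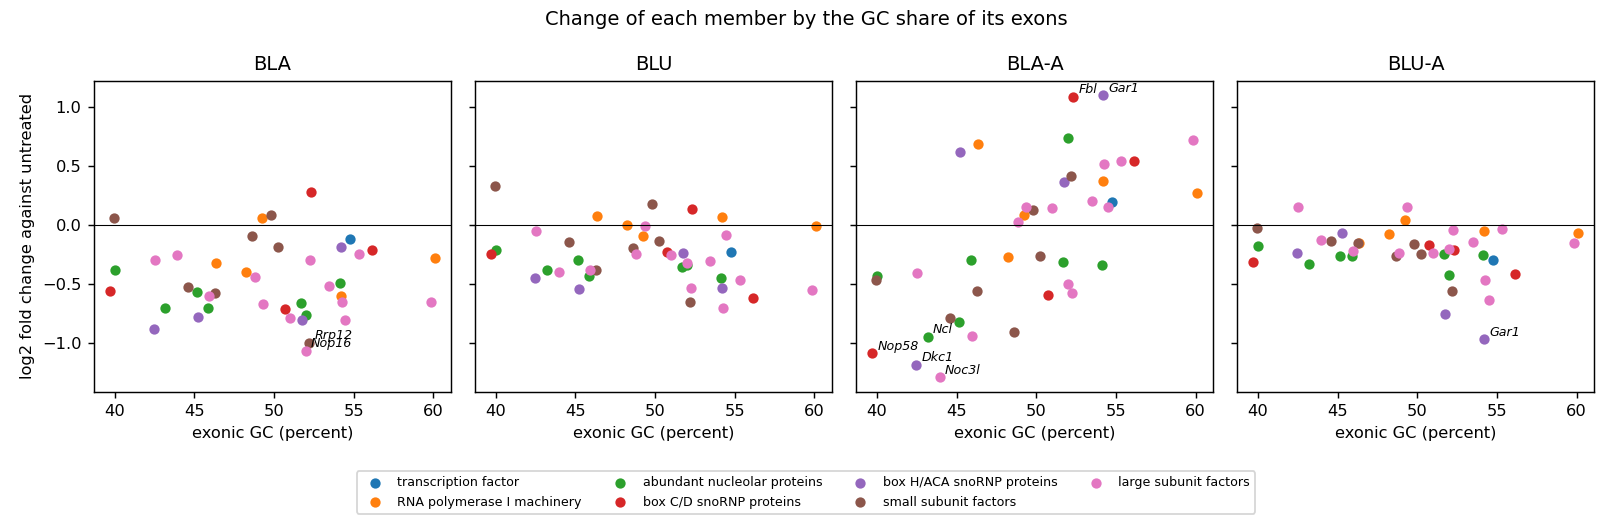
Log2 fold change against untreated cells (y axis) of each of the 41 genes by the GC percent of its annotated exons (x axis), 1 panel per treatment, coloured by role. In BLA-A the points run from the lower left, with Nop58, Dkc1 and Noc3l under -1, to the upper right, with Fbl and Gar1 over 1, and in the other panels most points lie below 0 at any GC share.

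Gene length moved with the other treatments. Over the genes at or above 10.8 CPM, the log10 gene span correlated with the change at a Spearman rho of 0.53 for BLA, 0.56 for BLU, 0.37 for BLU-A and -0.02 for BLA-A (Pearson r 0.48, 0.49, 0.28 and -0.05), shorter genes being lower in BLA, BLU and BLU-A. Over the 41 genes rho was 0.27, 0.33, 0.22 and -0.33 in the same order (Pearson r 0.33, 0.42, 0.24 and -0.32). With the median of all genes in each of 20 span bins removed, the medians of the 41 genes were -0.42 in BLA and -0.16 in BLU. The bin medians came from all genes kept, where rho was only 0.11 for BLA and 0.18 for BLU. Their removal may therefore leave part of the trend seen at or above 10.8 CPM in place. The part of gene length in the changes was not tested.

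The nanoparticles were next set against the plain extract of the same berry. Between BLA-A and BLA the median difference of the 41 genes was 0.35 while that of all genes was -0.08. Of the 41, 9 (22.0%) differed by over 1 in size, against 24.5% of all genes and 17.3% of those at or above 10.8 CPM, so the count was near the background. Between BLU-A and BLU the median was 0.06 and 0 differed by over 1, against 6.76% and 0.335%. Pa2g4 differed most between BLA-A and BLA, by 1.5 (1.42 to 1.59), and Rrp12 by 1.41 (1.26 to 1.64). Noc3l was lower in BLA-A than in BLA, at -1.03 (-1.20 to -0.91). These 2 differences share no library, and across the 41 genes they had a Spearman rho of -0.11 (Pearson r -0.11), with opposite signs for 20 genes.

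**Figure D5:**
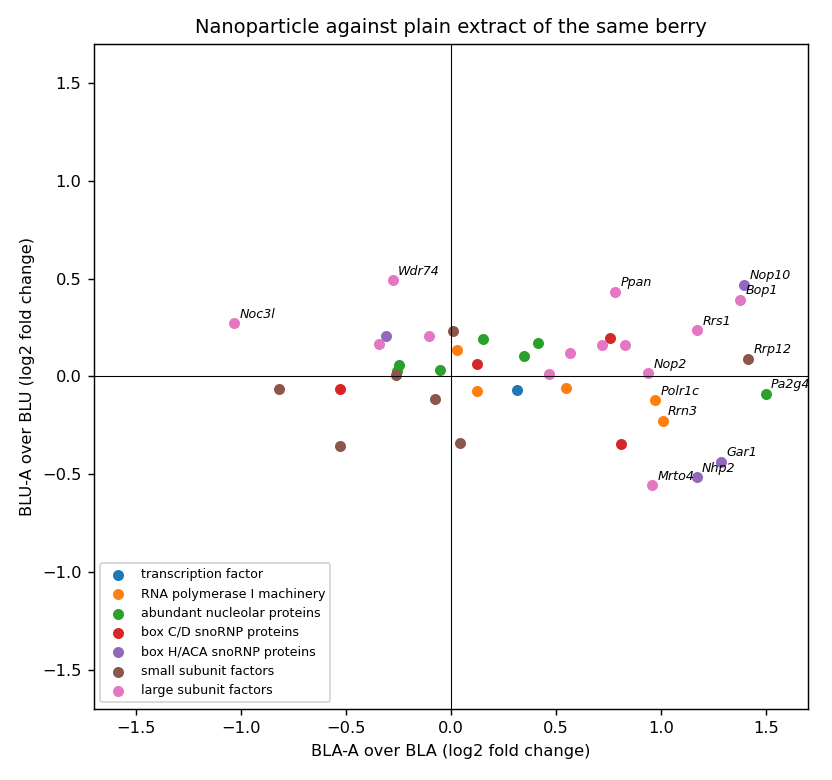
Log2 difference of BLU-A from BLU (y axis) against that of BLA-A from BLA (x axis) for each of the 41 genes, coloured by role, from 1 library per condition. The points spread from -1.03 to 1.5 along the blackberry axis and from -0.56 to 0.49 along the blueberry axis.

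The rest of the pathway was read from lists of 109 further genes, all of which passed the filter. The median change was -0.39 for BLA, -0.20 for BLU, -0.12 for BLU-A and -0.27 for BLA-A. In BLA 33 of the 109 (30.3%) were lower by over 0.5, against 21.5% of all genes, and 1 (0.917%) was higher, against 21.2%. In BLA-A 33 (30.3%) were lower, against 26.1%, and 14 (12.8%) higher, against 23.4%. Among the genes at or above 10.8 CPM, 13.6% were lower in BLA and 16.3% in BLA-A, and 15.4% and 25.3% were higher. All 41 other small subunit factors and all 13 RNA exosome genes were below untreated in BLA, and the exosome genes in BLU also. Of all genes, 50.9% were below untreated in BLA and 50.5% in BLU. The other 11 RNA polymerase I genes had a median of -0.29 in BLA and 0.01 in BLU, the 36 other large subunit factors -0.39 and -0.26, and the 8 other snoRNP assembly factors -0.22 and -0.16. Of those 11 RNA polymerase I genes, 5 (45.5%) were lower by over 0.5 in BLA, against 21.5% of all genes. In BLA-A 4 (36.4%) of the 11 were lower and 2 (18.2%) higher, against 26.1% and 23.4%.

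Changes over 1 in size were found for 14 of these 109 genes, 11 of them in BLA-A. Those 11 are 10.1% of the list, against 20.9% of all genes and 12.5% of the genes at or above 10.8 CPM, so the count was not above the background. The lowest there was Rcl1, a factor of small subunit cleavage, which was at 83.5 CPM in untreated cells and 26.4 CPM in BLA-A, a change of -1.65. Rsl1d1 followed at -1.35, Utp14a at -1.34, Znhit6 at -1.26, Gnl2 at -1.18, Exosc10 at -1.08, Gtpbp4 at -1.07, Wdr3 at -1.06 and Surf6 at -1.06. Snu13, a core protein of the box C/D particle like Fbl, was higher in BLA-A at 1.36, from 13.8 to 36.2 CPM, and Nle1 at 1.08. In BLA, Shq1, which escorts dyskerin before assembly, was higher at 1.07, and in BLU Polr1e, an RNA polymerase I subunit, was lower at -1.08 and Exosc4 at -1.02.

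Ribosomal RNA itself could be read only in part. Rn5s, a ribosomal RNA of the large subunit, was listed at 0, and Gm26917, a predicted RNA gene on the list, was at 57436 CPM in untreated cells, 63320 with BLA, 44350 with BLU, 86607 with BLA-A and 51212 with BLU-A. Ribosomal RNA was removed before sequencing, so these levels are not a measure of ribosomal DNA transcription. Of 6 proliferation genes, all were below untreated in BLA, BLU and BLU-A, against 50.9%, 50.5% and 49.7% of all genes. Their median changes were -0.49, -0.21 and -0.14 in that order, and 0 of them passed 0.5 in size in BLU-A. In BLA-A Top2a, a topoisomerase of dividing cells, was at -1.23 and Ccnb1, a mitotic cyclin, at 0.67. In these bulk samples fewer cycling cells and less RNA per cell cannot be told apart.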

How the data were processed

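RNA-seq of 4T1 cells was deposited as 1 table of raw counts per gene in 15 columns, 3 for each of 5 conditions. Per the study's methods and its supplementary processing report, the authors aligned reads with STAR to the GRCm39 RefSeq assembly after removal of ribosomal RNA and counted them in OmicsBox over whole genes, introns included, with forward strand and union overlap settings. The submitters' processing notes also name DESeq2 1.36.0. Introns, overlapping genes and strand choice can all move a gene's deposited count. The authors' tables of fold changes, p-values and ontology enrichment hold their own comparisons and were not used.

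The 3 columns of a condition were averaged, rounded to whole counts and used as 1 library. Genes that reached 1 CPM in 1 or more libraries were retained, 17647 in all, and TMM factors were computed in edgeR 4.0.16 (R 4.3.3). Changes are differences of log2(CPM + 0.5). Intervals are exact (Clopper-Pearson) 95% binomial intervals of the 2 libraries' counts at scaled sizes, except shares of a library (Wilson). A count of 0 allows up to 3 counts. They cover counting error only, since reads are not independent molecules. The 4 treated libraries were tested against the untreated one with edgeR's quasi-likelihood test (3 residual degrees of freedom, Benjamini-Hochberg adjustment over all genes kept), tested on simulated data first. DESeq2 1.42.0 was an alternative, as were other scalings, pseudocounts and filters.

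Exon GC share and gene span came from GENCODE M39 on GRCm39, matched by symbol for 16347 of the genes kept and all 41 described. Promoter windows came from RefSeq (GRCm38.p6). The batch label differs for every sample, so batch and sample cannot be told apart. The 41 genes and all gene lists were chosen with earlier results of these data known. Within them, genes were named by a rule: Myc, genes changed by over 1 in any treatment, and in each role the most changed, the least changed and the most counted, with other genes of a complex or list named after their values were seen.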

Additional observations from a re-analysis of the deposited data

Results flagged for a closer look

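Nhp2, a protein of the box H/ACA snoRNP, and Mrto4, an assembly factor of the large subunit, were singled out because the difference between nanoparticle and plain extract had opposite signs in the 2 berries and exceeded 0.5 in size in both. For Nhp2 the log2 difference was 1.17 (95% counting interval 1.04 to 1.34) between BLA-A and BLA and -0.52 (-0.69 to -0.37) between BLU-A and BLU. For Mrto4 it was 0.96 (0.77 to 1.22) and -0.56 (-0.80 to -0.36). With 1 library per condition the difference between the berries was not tested. Both genes were picked for the size of these values, and 20 of the 41 genes had opposite signs. The share of all genes that pass the same rule was not counted. Both genes overlap another annotated gene, Rmnd5b for Nhp2 and Emc1 and Ubr4 for Mrto4.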

How the results depend on the processing

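Of 532 values of named genes recomputed under other scalings, filters and pseudocounts or without 1 numbered column of each condition, 497 moved by less than their counting error, 35 moved by more and 0 changes over 0.5 in size turned sign. In BLA the count over 1 in size, 1 gene, became 2 with scaling by total counts or DESeq2 size factors, 0 with a pseudocount of 2 CPM, where Nop16 was at -0.99, and 1 to 2 without replicate 1, 2 or 3. The gene that joined Nop16 was Rrp12, which lies at -1.0. The same count in BLU-A, 0, was 0 to 1 without a replicate. With scaling by total counts BLA-A had 4 genes higher by over 0.5 and a median of -0.17. Restricted to the 6 genes that overlap no other gene, BLA had 0 over 1, 2 lower by over 0.5 and a median of -0.33, BLU 2 lower and a median of -0.38, BLA-A 2 over 1, 1 lower and 2 higher, and BLU-A 1 lower. Counts in a subset cannot exceed those of the full list, which does not bear on the medians. In 2 alternatives chosen after seeing the data, removal of GC bins left BLU with 4 lower and BLA-A with 2 over 1, 5 higher and a median of -0.12, and removal of gene span bins left BLA with a median of -0.42, BLU with 4 lower and a median of -0.16, and BLA-A with 3 over 1 and 5 higher. The cause of these shifts was not tested. The BLA-A median of 0.02 is the value of one gene in a gap, and without Myc it is -0.12.

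The quasi-likelihood test called 4 genes, DESeq2 called 19, and leaving out 1 treated library gave 3 to 34, with 34 when BLA-A was left out. When the 15 columns were entered as separate samples, 14181 genes and 35 of the 41 were called, and adding a replicate block gave 14182 and 35. Those columns vary by less than sampling noise, so these counts are not evidence across cultures. The numbers do not pair the columns: over 30 pairs of same-numbered columns, deviations correlated between -0.02 and 0.02. At these depths the columns of a gene ranged over a median of 2.06% of their mean, at most 12.6% (Nop16 in BLA-A), and Gar1, Rrp9 and Fbl rest on the fewest counts.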
